A study of Mus musculus with 10 samples.

Results

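The whey acidic protein (WAP) four-disulfide core antiproteases are small secreted proteins, and 7 of their genes, *Wfdc1*, *Wfdc2*, *Wfdc3*, *Wfdc15b*, *Wfdc17*, *Wfdc18* and *Slpi*, were followed in the mouse uterus. They were picked by name from the 29268 genes of the deposited table, with the difference between the genotypes already known, so their fold changes are given as a description of these mice. All 7 passed the filter on low counts and were among the 16993 genes tested. Uterine RNA was sequenced at the age of 4 months from 5 HSD17B1TG and 5 wild-type (WT) mice, with 1 library per mouse.

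HSD17B1TG mice are heterozygous FVB/N females that carry a human *HSD17B1* cDNA under a CMV-enhanced chicken beta actin promoter, which drives it in all tissues and not in 1 uterine cell type. The encoded enzyme makes estradiol from estrone. The mice come from 1 line, HSD17B1TG females do not cycle, and the study's methods for histology give WT uteri of random cycle phases, so a missing cycle and the transgene cannot be told apart in the comparison. The human transgene is not counted in the mouse annotation, so it could not be checked in the libraries. The labels name no litter, batch or cycle stage, and the numbers of the mice are only names.

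A WAP domain is a short stretch of protein held together by disulfide bonds between its cysteines, and many of these proteins block serine proteases or kill bacteria. In the female reproductive tract several are secreted into mucus and luminal fluid by epithelial cells. SLPI, the secretory leukocyte protease inhibitor, is the best known of them and blocks neutrophil elastase and cathepsin G.

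The cysteines can be read directly from the genes. The spliced coding sequences of 4 of the genes are shown 5′ to 3′, those of *Wfdc18*, *Wfdc17* and *Wfdc15b* from start to stop codon and that of *Slpi* from codon 34 to the stop codon, with every in-frame cysteine codon in capitals, because these codons are what the family shares and these 4 genes hold the contrasts described below. They are reference sequences of GENCODE M21 on GRCm38, not reads of these FVB/N mice. *Wfdc17* (chr11:83703991-83706268, plus strand) and *Wfdc18* (chr11:83709015-83711348, plus strand) are neighbours with 2746 bases between them. *Wfdc15b* (chr2:164214454-164221660) and *Slpi* (chr2:164354070-164389095) lie on the minus strand.
Wfdc18: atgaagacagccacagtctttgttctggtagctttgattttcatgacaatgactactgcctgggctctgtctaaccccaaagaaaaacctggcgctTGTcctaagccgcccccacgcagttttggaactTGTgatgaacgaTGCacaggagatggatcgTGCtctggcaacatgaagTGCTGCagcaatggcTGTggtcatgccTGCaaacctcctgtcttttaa
Wfdc17: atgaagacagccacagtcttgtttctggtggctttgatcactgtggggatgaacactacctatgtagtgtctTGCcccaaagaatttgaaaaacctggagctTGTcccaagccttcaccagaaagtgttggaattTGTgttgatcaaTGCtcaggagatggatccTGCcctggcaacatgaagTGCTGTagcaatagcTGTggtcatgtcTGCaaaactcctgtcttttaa
Wfdc15b: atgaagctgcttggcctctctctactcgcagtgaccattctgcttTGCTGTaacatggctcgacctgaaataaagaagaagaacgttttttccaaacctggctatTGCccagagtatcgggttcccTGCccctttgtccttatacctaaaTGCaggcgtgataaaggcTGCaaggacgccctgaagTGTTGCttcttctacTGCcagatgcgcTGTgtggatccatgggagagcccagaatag
Slpi: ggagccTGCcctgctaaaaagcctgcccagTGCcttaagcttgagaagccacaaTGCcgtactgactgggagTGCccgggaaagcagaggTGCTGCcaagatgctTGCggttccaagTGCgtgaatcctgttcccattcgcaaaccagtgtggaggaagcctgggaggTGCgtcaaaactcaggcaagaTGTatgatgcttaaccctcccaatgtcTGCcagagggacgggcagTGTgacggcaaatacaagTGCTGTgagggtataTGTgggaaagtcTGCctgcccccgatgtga

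*Wfdc18* has 74 codons with 8 for cysteine, *Wfdc17* 76 with 9, *Wfdc15b* 80 with 10 and *Slpi* 131 with 17. Over the 7 genes 6.16% to 13% of the codons were for cysteine, against a median of 2.13% over 21448 protein-coding genes. *Wfdc17* and *Wfdc18* shared 79.7% of the aligned bases, whereas the other 20 pairs shared 33.2% to 52.1%. None of the 7 genes shared a stretch of 50 bases in the same orientation with a transcript of another gene, and the reads were 150 bases long. Matches to the reverse complement, as with an antisense transcript, were not searched. Of the other members, *Wfdc2* (chr2:164562413-164568510, plus strand) and *Wfdc3* (chr2:164731180-164745931, minus strand) lie on chromosome 2 within 531 kb of *Wfdc15b* and *Slpi*. *Wfdc1* (chr8:119666365-119688222, plus strand) is overlapped by the antisense gene *Gm32352*, and the strand setting of the counting is not given in the sources used here. *Slpi* holds the microRNA gene *Mir7678*.

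Total counts on genes were 14817228 to 23271988 per mouse. Mitochondrial genes took 1.94% to 7.57% of the counts in the HSD17B1TG mice and 2.58% to 3.37% in the WT mice. HSD17B1TG mice 1, 4 and 5 (5.74%, 6.87% and 7.57%) stood above the other 7 mice in this share. The same 3 mice had the highest *Slpi* of all mice, mice 1 and 4 the highest *Wfdc17* and mouse 5 the highest *Wfdc18*, and the part of this share in those levels was not tested. HSD17B1TG mouse 1 had the highest summed smooth muscle markers of the 10 mice, whereas HSD17B1TG mouse 5 had the highest summed epithelial and the lowest summed stromal markers. Epithelial, stromal and smooth muscle markers were present in every mouse. Levels are given as FPKM, the fragments of a gene divided by its length and by a size of the library, as computed by the authors. That size was not the total count itself, and its ratio to the total is given with the processing. A gene was called higher or lower where edgeR's quasi-likelihood test gave an adjusted p-value under 0.05, the fold change was over 2 and at least 1 genotype had a mean above 1 FPKM.

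By this rule *Wfdc18* was higher and *Wfdc15b* was lower in HSD17B1TG, and the other 5 genes were not called. Of all genes tested, 2.16% were called higher and 2.08% lower, or 4.24% in either direction. The same 2 genes had groups that did not overlap in FPKM, as 4.04% of all genes did upward and 2.65% downward, or 6.69% together. An unadjusted p-value under 0.05 was reached by 4 of the 7 genes and by 26.1% of all genes. The log2 fold change was above 0 for 4 of the 7 genes, against 50.2% of all genes, and its median was 0.20 over the 7 genes and 0.0021 over all genes tested.

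**Figure D1:**
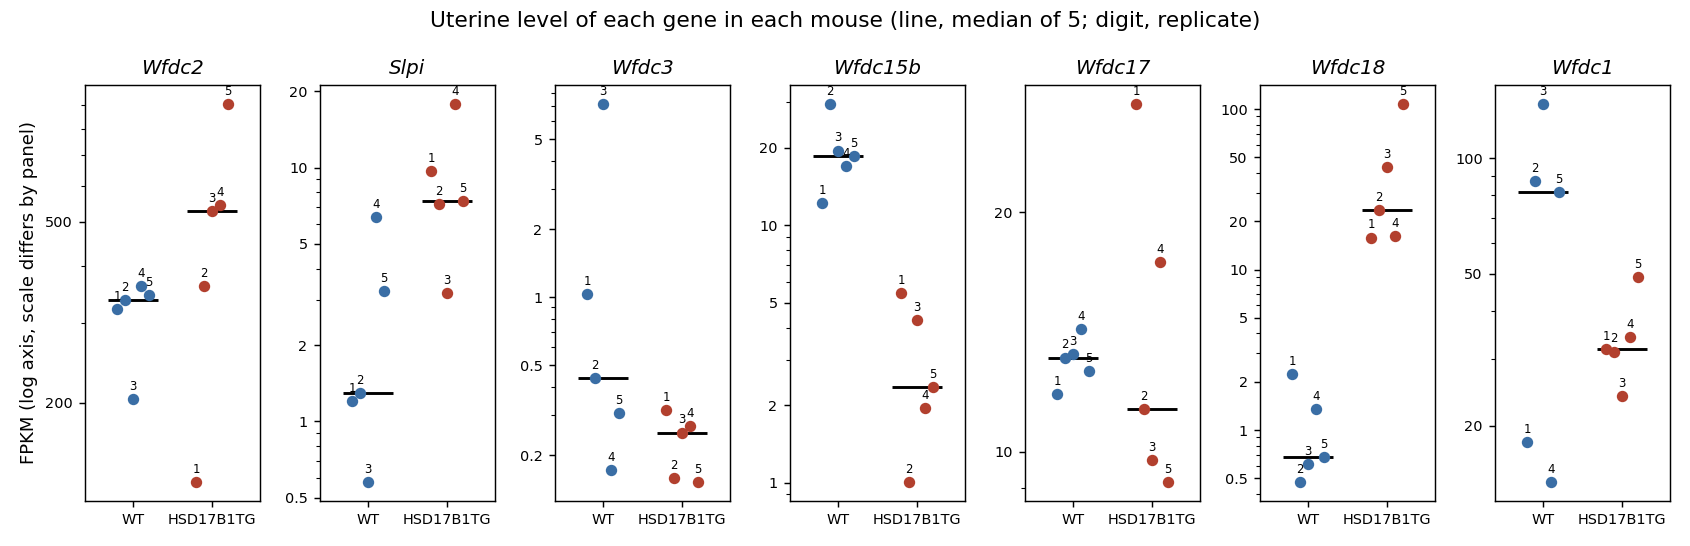
FPKM of the 7 genes in each mouse on log axes that differ by panel, with WT in blue and HSD17B1TG in red, a line at the median of 5 mice and the replicate number beside each point. The groups are apart for *Wfdc18* (HSD17B1TG 15.8 to 108, WT 0.475 to 2.23) and *Wfdc15b* (1.00 to 5.44 and 12.2 to 29.6) and overlap in the other 5 panels.

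*Wfdc18* (ENSMUSG00000000983), known as extracellular proteinase inhibitor, encodes a protein with a single WAP domain. Its FPKM were 15.8, 23.6, 43.7, 16.2 and 108 in HSD17B1TG mice 1 to 5. In WT mice 1 to 5 they were 2.23, 0.475, 0.610, 1.35 and 0.680. Every HSD17B1TG mouse was above every WT mouse, and the lowest HSD17B1TG level was several times the highest WT level. The WT values rest on 11 to 67 counts and the HSD17B1TG values on 319 to 2046. Mean levels were 41.4 ± 38.8 FPKM in HSD17B1TG against 1.07 ± 0.733 FPKM in WT (SD, n = 5 each). The fitted log2 fold change was 5.25 ± 0.71 (SE), or 38.0-fold, with an adjusted p-value of 0.0149 in edgeR. HSD17B1TG mouse 5 stood highest, and without it the log2 fold change was 4.51 (adjusted p-value 0.0247 in edgeR). *Wfdc18* was called with each mouse left out in turn and under every other normalization, filter and tool tried.

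*Wfdc17*, described in activated macrophages and microglia, is the gene next to *Wfdc18* and, among the 7 genes, the closest to it in sequence. Its levels took another course. Its FPKM were 27.4, 11.3, 9.77, 17.3 and 9.16 in HSD17B1TG mice 1 to 5. In WT mice 1 to 5 they were 11.8, 13.1, 13.3, 14.3 and 12.6. The WT mice lay in a narrow band, with 2 HSD17B1TG mice above all of it and the other 3 below all of it. The coefficient of variation was 51.0% in HSD17B1TG and 6.85% in WT. For *Wfdc17* the log2 fold change was 0.20 ± 0.31 (adjusted p-value 0.733 in edgeR), and it turned to -0.13 without HSD17B1TG mouse 1. The summed level of 8 macrophage markers was 171 to 293 FPKM in HSD17B1TG and 141 to 221 FPKM in WT, and HSD17B1TG mouse 1 was highest in both the markers and *Wfdc17*. HSD17B1TG mouse 5 went the other way, with markers at 227 FPKM, above every WT mouse, and the lowest *Wfdc17* of the 10 mice. Of these markers *Cd68*, a lysosomal glycoprotein, was called higher (log2 fold change 1.58, adjusted p-value 0.0269 in edgeR), and the other 7 were not called. In HSD17B1TG mouse 5 *Cd68* was 84.3 of the summed 227 FPKM. In the same mouse *Csf1r* (6.19 FPKM) and *Mrc1* (2.16 FPKM) were below every WT mouse, and the remaining macrophage markers lay within the WT range. The part of macrophages in the *Wfdc17* levels was not tested.

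The pair can be compared within a mouse without the scale of the library. The count of *Wfdc18* divided by that of *Wfdc17* was 1.32 to 26.9 in HSD17B1TG (median 4.76) and 0.0827 to 0.432 in WT (median 0.123). *Wfdc17* had more counts than *Wfdc18* in all 5 WT mice and fewer in all 5 HSD17B1TG mice. This ratio holds the length of both genes and the contrast that was already known, and is a description.

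*Wfdc15b* (ENSMUSG00000018211) encodes another protein with a single WAP domain. Its FPKM were 5.44, 1.00, 4.27, 1.95 and 2.36 in HSD17B1TG mice 1 to 5. In WT mice 1 to 5 they were 12.2, 29.6, 19.5, 16.9 and 18.6. All 5 HSD17B1TG mice were below all WT mice, with 10 to 58 counts against 171 to 322. Mean levels were 3.01 ± 1.81 FPKM in HSD17B1TG against 19.4 ± 6.40 FPKM in WT (SD, n = 5 each). For *Wfdc15b* the log2 fold change was -2.69 ± 0.45 (SE), a 6.45-fold lower level, with an adjusted p-value of 0.0177 in edgeR. Without HSD17B1TG mouse 5 the value was -2.61 and the call was lost (adjusted p-value 0.0514 in edgeR).

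*Slpi* had a higher mean in HSD17B1TG but did not pass the test. Its FPKM were 9.73, 7.21, 3.20, 17.8 and 7.35 in HSD17B1TG mice 1 to 5. In WT mice 1 to 5 they were 1.21, 1.29, 0.578, 6.36 and 3.27. Of the HSD17B1TG mice 4 were above every WT mouse, and mouse 3 was below WT mice 4 and 5. In edgeR the log2 fold change was 1.83 ± 0.65 (adjusted p-value 0.105). It was called by DESeq2 (adjusted p-value 0.0264) and, at a log2 fold change of 2.50, when WT mouse 4 was left out of edgeR (adjusted p-value 0.0254).

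Neutrophil markers are given beside *Slpi*, and their sum was not tested. The summed level of 9 such markers was 7.74 to 14 FPKM in HSD17B1TG and 0.619 to 5.10 FPKM in WT, without overlap. Of these markers 4 passed the filter on low counts and 0 were called by edgeR (1 at an unadjusted p-value under 0.05), while DESeq2 called 1 and limma voom 0. *S100a9*, a calcium-binding protein abundant in neutrophils, had a log2 fold change of 3.20 (unadjusted p-value 0.0140, adjusted 0.0967) and the surface marker *Ly6g* of 2.12 (adjusted p-value 0.236), each with 4 HSD17B1TG mice above every WT mouse. *S100a9* was highest in mouse 1 and *Ly6g* in mouse 3. *Csf3r* had a log2 fold change of 0.53 (adjusted p-value 0.392 in edgeR), with 0 HSD17B1TG mice above every WT mouse. For *Mpo* it was 0.95 (adjusted p-value 0.387 in edgeR), with 2 above. *S100a8* and *Cxcr2* did not pass the filter and had at most 23 and 5 counts in any mouse. In HSD17B1TG mice 1 to 5 the sum was 14, 7.74, 13.3, 9.12 and 11.3 FPKM, beside the *Slpi* levels above. Of this sum *S100a9* was 7.71 FPKM in mouse 1, and *Ly6g* was 9.42 FPKM in mouse 3 and 7.71 FPKM in mouse 5. The granule markers *Camp* and *Ngp* and the neutrophil marker *Retnlg* were at or near 0, with at most 4 counts in any mouse. The part of neutrophils in the *Slpi* levels was not tested. In bulk tissue, fewer cells of a type and less RNA per cell cannot be told apart.

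*Wfdc2*, also named HE4 and made by epithelia of the reproductive tract, had the highest FPKM of the 7 genes in every mouse. It took 59.7% to 86.1% of their summed FPKM in HSD17B1TG and 53.1% to 87.4% in WT. Its FPKM were 134, 361, 528, 545 and 907 in HSD17B1TG mice 1 to 5. In WT mice 1 to 5 they were 322, 336, 203, 362 and 345. The HSD17B1TG mice lay on both sides of the WT mice, with 1 below and 3 above all of them. The log2 fold change was 0.66 ± 0.40 (adjusted p-value 0.328 in edgeR). It was 0.90 without HSD17B1TG mouse 1, the mouse with the lowest *Wfdc2*, and 0.32 without HSD17B1TG mouse 5, the mouse with the highest.

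*Wfdc1*, also named ps20 and first described as a growth inhibitor from prostate stroma, fell into low and high levels among the WT mice. Its FPKM in WT mice 1 to 5 were 18.1, 87.4, 139, 14.3 and 81.6. In HSD17B1TG mice 1 to 5 they were 31.8, 31.3, 24, 34.2 and 49.1. The HSD17B1TG levels lay inside the gap between the 2 low and the 3 high WT mice. The coefficient of variation was 27.0% in HSD17B1TG and 76.9% in WT. It had a log2 fold change of -1.01 ± 0.55 (adjusted p-value 0.277 in edgeR), or of -0.60 without WT mouse 3.

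*Wfdc3* was close to the lower limit of detection in most mice. Its FPKM were 0.318, 0.159, 0.252, 0.270 and 0.152 in HSD17B1TG mice 1 to 5, from 6 to 15 counts. In WT mice 1 to 5 they were 1.03, 0.437, 7.16, 0.172 and 0.309, from 64, 21, 292, 9 and 16 counts. WT mouse 3 held most of the WT signal. A log2 fold change of -2.97 ± 0.98 (adjusted p-value 0.0890 in edgeR) became -1.10 (adjusted p-value 0.271) without WT mouse 3. *Wfdc3* was called lower by DESeq2 (adjusted p-value 0.00928) and when WT mouse 4 was left out of edgeR (adjusted p-value 0.0395), so the call rested on the setting.

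**Figure D2:**
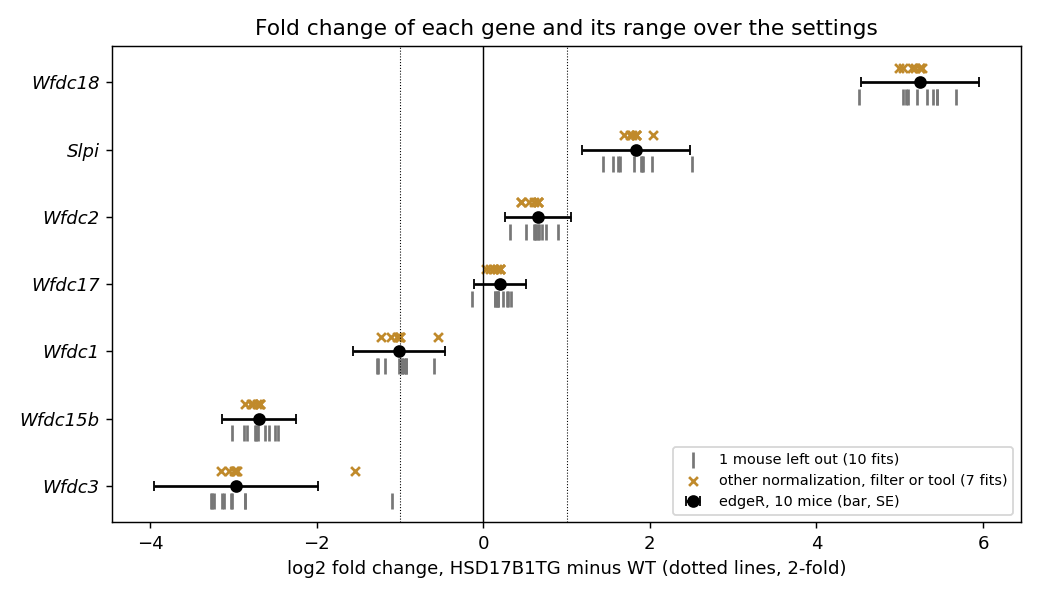
Log2 fold change of HSD17B1TG minus WT for the 7 genes, with the edgeR value of 10 mice as a point and its SE as a bar, the 10 values with 1 mouse left out as grey ticks, and the values of 7 other normalizations, filters or tools as crosses. *Wfdc18* stays between 4.51 and 5.68 and *Wfdc15b* between -3.01 and -2.47 with a mouse left out, whereas *Wfdc3* moves to -1.10 and *Wfdc17* crosses 0.

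The order of the 7 genes by mean FPKM differed between the genotypes. In WT it was *Wfdc2*, *Wfdc1*, *Wfdc15b*, *Wfdc17*, *Slpi*, *Wfdc3* and *Wfdc18*. Only *Wfdc2* and *Wfdc1*, and *Wfdc17* and *Slpi*, were neighbours in this order whose ranges over the WT mice did not overlap. In HSD17B1TG it was *Wfdc2*, *Wfdc18*, *Wfdc1*, *Wfdc17*, *Slpi*, *Wfdc15b* and *Wfdc3*. Here the ranges of the neighbours *Wfdc2* and *Wfdc18*, and of *Wfdc15b* and *Wfdc3*, did not overlap. The last gene of the WT order, *Wfdc18*, was thus the second by mean in HSD17B1TG. That place rested on HSD17B1TG mice 3 and 5, since *Wfdc18* was below *Wfdc1* in the other 3 mice and in the median (23.6 against 31.8 FPKM). FPKM divide by the gene length of the table, which is 1220 bases for *Wfdc18* while the transcript shown above has 521, so the place of a gene in this order depends on the length used. Summed over the 7 genes, the level was 224 to 1083 FPKM in HSD17B1TG and 368 to 468 FPKM in WT.

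**Figure D3:**
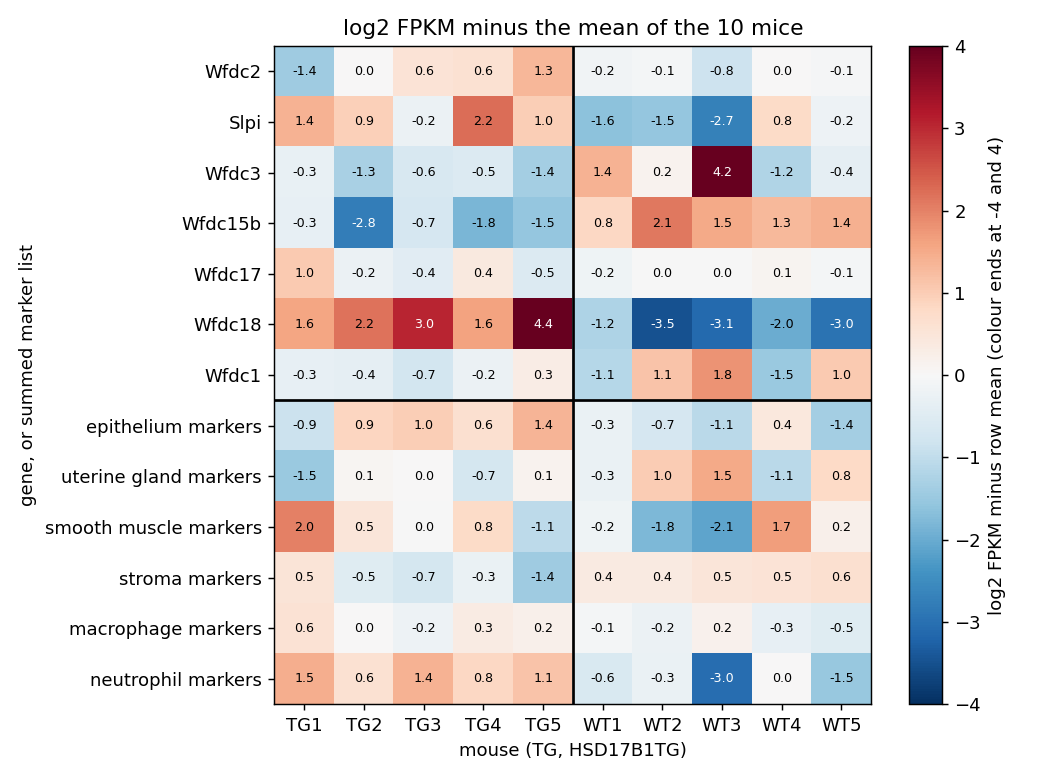
Log2 FPKM minus the mean of the 10 mice for the 7 genes (above the line) and for the summed FPKM of 6 cell type marker lists (below it), with each mouse in a column, red above the mean and blue below it. *Wfdc18* is above its mean in all HSD17B1TG mice and *Wfdc15b* is below it, while HSD17B1TG mouse 1 is low in *Wfdc2* and epithelial markers and high in *Wfdc17* and smooth muscle markers.

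Summed markers of the main tissue layers differed between the libraries. The summed level of 11 epithelial markers, among them the adhesion molecule *Epcam* and the keratin *Krt8*, was 760 to 3563 FPKM in HSD17B1TG and 531 to 1825 FPKM in WT. None of the 11 was called by edgeR (8 had an unadjusted p-value under 0.05), DESeq2 called 4 higher, and limma voom called 0. The summed level of 8 stromal markers was 492 to 1885 FPKM in HSD17B1TG and 1669 to 2018 FPKM in WT, and 4 of them were called lower. Squamous markers, which mark vaginal or squamous epithelium, were also present, with a summed level over 4 genes of 1.66 to 40.4 FPKM in HSD17B1TG and 1.09 to 5.05 FPKM in WT. Of these the keratin *Krt13* was called higher (log2 fold change 4.30, adjusted p-value 0.0426 in edgeR). *Krt13* was at 1.44 to 16.4 FPKM in HSD17B1TG and 0 to 0.925 FPKM in WT. *Krt5*, *Krt14* and *Trp63* were not called, with log2 fold changes of 2.48, 1.62 and -0.53, and *Trp63* was at most 0.251 FPKM in any mouse. The squamous sum was highest in HSD17B1TG mouse 3, with *Krt5* at 17.6 and *Krt13* at 16.4 FPKM. *Krt5* had 0 counts in HSD17B1TG mouse 5, which had the highest *Wfdc18*. The part of the squamous markers in the levels of *Wfdc18* and the other members was not tested. Summed markers of endothelium were at 14.2 to 55.5 FPKM in HSD17B1TG and 35.3 to 90.0 FPKM in WT, and those of uterine glands at 12.8 to 39.4 and 16.8 to 102 FPKM, with no marker of either list called by edgeR (3 of 5 and 1 of 3 tested had an unadjusted p-value under 0.05) or limma voom and 1 of each called lower by DESeq2. The levels of the 7 genes were therefore also set against the epithelial and stromal sums, and against those of smooth muscle and macrophage markers. The squamous, endothelial and gland sums were not used in this way.

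Per 1000 FPKM of epithelial markers, *Wfdc18* was at 7.55 to 30.2 FPKM in HSD17B1TG and 0.555 to 1.96 FPKM in WT, still without overlap. On the same scale *Wfdc15b* was at 0.404 to 7.16 FPKM in HSD17B1TG and 9.28 to 35.0 FPKM in WT, also without overlap. The epithelial sum itself was higher in HSD17B1TG (median 2485 against 855 FPKM), which by division widens the gap of *Wfdc15b* and narrows that of *Wfdc18*. The groups of *Wfdc2* overlapped, with a median of 193 FPKM in HSD17B1TG and 315 FPKM in WT. The median of *Wfdc2* was thus higher in HSD17B1TG in plain FPKM (528 against 336) and lower on this scale. Per 1000 FPKM of stromal or macrophage markers it was higher in HSD17B1TG (502 against 191 and 2227 against 2013 FPKM). Per 1000 FPKM of smooth muscle markers it was lower (175 against 198 FPKM), and the groups overlapped on each of these scales. Per 1000 FPKM of stromal markers, *Wfdc18* remained above and *Wfdc15b* below all WT mice, and here the lower sum in HSD17B1TG (median 927 against 1821 FPKM) widens the gap of *Wfdc18* and narrows that of *Wfdc15b*. *Slpi* (3.99 to 16.4 FPKM in HSD17B1TG and 0.317 to 3.36 FPKM in WT) and *Wfdc17* (12.2 to 18.6 and 6.26 to 7.86 FPKM) were above every WT mouse on the stromal scale, whose sum was itself lower in most HSD17B1TG mice. Per 1000 FPKM of epithelial, smooth muscle or macrophage markers the groups overlapped for both genes. There the median of *Wfdc17* was lower in HSD17B1TG, at 4.56 against 15.4 FPKM on the epithelial scale, 5.44 against 7.28 FPKM on the smooth muscle scale and 57.2 against 78.7 FPKM on the macrophage scale. The median of *Slpi* was higher in HSD17B1TG on the same 3 scales, at 2.90 against 1.51 FPKM, 2.85 against 1.36 FPKM and 33.2 against 7.75 FPKM. The macrophage sum was itself higher in HSD17B1TG (median 227 against 167 FPKM), with *Cd68* its only called marker. The smooth muscle sum was higher too (median 2532 against 1624 FPKM). By division these sums lower the values of HSD17B1TG on both scales. These scales were chosen after the levels were seen, and which cells made each gene was not tested.

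**Figure D4:**
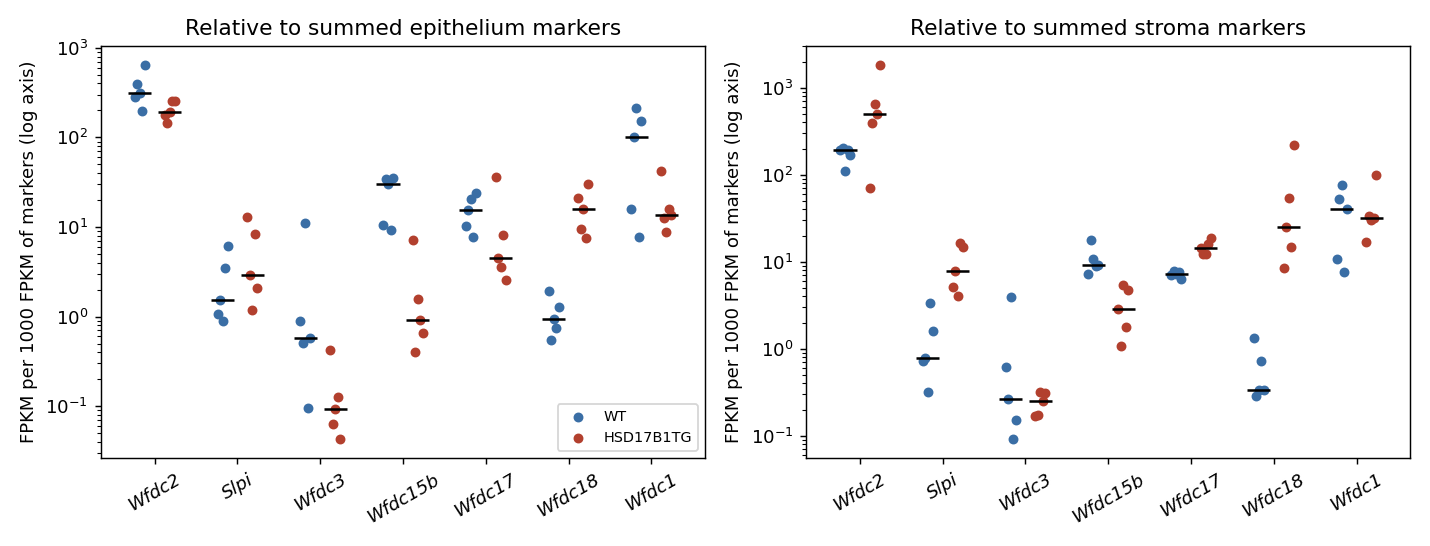
FPKM of the 7 genes per 1000 FPKM of summed epithelial markers (left) and stromal markers (right) on log axes, with 1 point per mouse, WT in blue, HSD17B1TG in red and lines at the medians. On both scales *Wfdc18* is higher in every HSD17B1TG mouse (medians 16.0 against 0.944 on the epithelial scale) and *Wfdc15b* lower (0.908 against 30.2), while *Wfdc2* overlaps.

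The genes whose levels went most alike with each member were found by Pearson's r over the 10 mice, after the mean of each genotype had been taken off the log2 CPM (counts scaled to the size of the library). Of 12662 protein-coding genes compared, those closest to *Wfdc18* were *Snx6* (r = 0.963), *Gnb2* (0.945) and *Ppp1r10* (0.939). Closest to *Wfdc17* were *Ano10* (0.992), *Irf5* (0.989) and *Adk* (0.986), and closest to *Slpi* were *Star* (0.972), *Mmrn1* (0.971) and *1810013L24Rik* (0.962). *Wfdc2* went most with *Tmed5* (0.976), *Ube2q1* (0.970) and *Fnbp1l* (0.965), and *Wfdc1* with *Ndp* (0.984), *Capn6* (0.975) and *Pdgfd* (0.965). *Wfdc15b* had *Bhlhb9* (0.912), *Zfp442* (0.908) and *Hmgxb4* (0.904), and *Wfdc3* had *Actr8* (0.924), *Ubn1* (0.919) and *Lrpap1* (0.915). No member was among the genes compared, the points share library and depth, and the highest of so many values is high by its choice, so these are descriptions only.

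Most of the other WAP genes examined had few counts. Of 16 further genes with a WAP domain, 13 were in the table and 2 passed the filter on low counts, whereas *Wfdc5*, *Wfdc9* and *Wfdc11* were not analysed here. Neither was called by edgeR, DESeq2 or limma voom, and 1 had an unadjusted p-value under 0.05 in edgeR. *Wfikkn1*, a secreted protein with several inhibitor domains, had means of 0.735 ± 0.286 FPKM in HSD17B1TG against 0.349 ± 0.138 FPKM in WT (SD, n = 5 each), with a log2 fold change of 1.06 ± 0.43 (adjusted p-value 0.147 in edgeR). Its relative *Wfikkn2* had a log2 fold change of -1.02 ± 0.88 (adjusted p-value 0.503) and 727 counts in WT mouse 5, against 20 to 149 in the other mice.

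The remaining 11 did not pass the filter. *Eppin*, a protease inhibitor of the male tract, had 35 counts in WT mouse 3 and 18 in WT mouse 2, and *Wfdc13* 27 and 4 in the same mice. *Wfdc10* had 28 counts in WT mouse 3 and at most 8 elsewhere, and *Wfdc12* had 17 in HSD17B1TG mouse 1 and 23 in WT mouse 4. *Wfdc21*, the next protein-coding gene after *Wfdc18*, had 8 and 7 counts in HSD17B1TG mice 4 and 5 and 0 in the other 8 mice. *Wfdc8* and *Wfdc6a* had at most 16 and 11 counts, *Wfdc15a*, *Wfdc16* and the milk protein gene *Wap* at most 6, 4 and 2, and *Wfdc6b* at most 1. A count of 0 allows up to 3 counts, or 0.129 to 0.202 CPM in these libraries, which covers counting error only. *Wfdc15a*, the next protein-coding gene on one side of *Wfdc15b*, was thus near the limit of detection in a tissue where *Wfdc15b* was readily counted.

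The proteases that such inhibitors meet were also examined. Of 8 listed serine proteases of leucocytes, 6 were in the table and 5 were tested, and 0 were called by edgeR, DESeq2 or limma voom (0 at an unadjusted p-value under 0.05 in edgeR). The log2 fold change was 0.69 ± 0.64 for *Prtn3* (neutrophil proteinase), 0.54 ± 0.94 for *Tpsab1* and 0.39 ± 0.94 for *Tpsb2* (mast cell tryptases), the 3 with the smallest p. The gene of cathepsin G, *Ctsg*, did not pass the filter and had 0 counts in all 5 HSD17B1TG mice and in WT mice 4 and 5. The elastase gene *Elane* was not analysed here.

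Of 13 protease inhibitors with Kunitz or Kazal domains, 12 were in the table, 6 were tested and 1 was called. *Spint2*, a membrane-anchored Kunitz inhibitor of epithelial serine proteases, had means of 185 ± 94.1 FPKM in HSD17B1TG against 61.8 ± 22.9 FPKM in WT (SD, n = 5 each), without overlap. The fitted log2 fold change was 1.58 ± 0.36 (adjusted p-value 0.0345 in edgeR), and the call was lost when any 1 of HSD17B1TG mice 2, 4 and 5 or WT mice 1, 2, 3 and 5 was left out. *Spink8* (-3.07 ± 1.05, adjusted p-value 0.0977) and *Tfpi2* (-1.35 ± 0.48, adjusted p-value 0.103) were called lower by DESeq2 and not by edgeR.

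Last, the sequence before the RefSeq start of the genes was read for motifs, since the transgene makes an estrogen. RefSeq windows of 250 bases before the start (GRCm38.p6) were found for 6 of the 7 genes, all but *Wfdc1*. RefSeq starts can differ from the GENCODE gene bounds given above, and the windows of *Slpi*, *Wfdc3* and *Wfdc2* lie within those bounds, that of *Wfdc17* by 65 of its bases, and those of *Wfdc18* and *Wfdc15b* outside them. The windows of both called genes are shown 5′ to 3′ on the strand of the gene, with each copy of GGTCA, the repeat unit of the estrogen response element, in capitals on either strand (TGACC where it is on the other one). That of *Wfdc18* is chr11:83708754-83709003 (plus strand) and that of *Wfdc15b* is chr2:164221664-164221913 (minus strand).
Wfdc18 promoter: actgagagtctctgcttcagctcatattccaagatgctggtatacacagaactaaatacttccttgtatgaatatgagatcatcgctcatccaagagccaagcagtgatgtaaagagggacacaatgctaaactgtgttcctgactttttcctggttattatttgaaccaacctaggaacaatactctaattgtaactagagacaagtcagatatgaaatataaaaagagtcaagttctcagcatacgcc
Wfdc15b promoter: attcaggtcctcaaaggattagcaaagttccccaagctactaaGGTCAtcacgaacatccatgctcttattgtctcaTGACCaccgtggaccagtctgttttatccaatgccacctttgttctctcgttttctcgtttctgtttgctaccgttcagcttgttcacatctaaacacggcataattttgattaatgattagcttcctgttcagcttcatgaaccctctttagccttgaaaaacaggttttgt

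*Wfdc18* held no copy of GGTCA and *Wfdc15b* held 2. *Wfdc3* held 1, *Wfdc2* held 1 in 1 of its 2 windows, and *Slpi* and *Wfdc17* held none. Of all 32851 windows, 35.2% held at least 1 copy. The full estrogen response element, GGTCA and TGACC with 3 bases between them, was in none of the windows of these genes and in 0.0639% of all windows. The AP-1 site TGANTCA was in none of them either (6.75% of all windows), and the NF-kB-like pattern, GGGA and CC with 4 bases between them, was in that of *Wfdc3* (17.6% of all windows). A match is a run of letters and no measured site, and these windows say nothing of sequence farther away.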

How the data were processed

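Uterine RNA of 10 mice, 1 library per mouse, was read as paired ends of 150 bases. Per the labels and the paper's methods, the authors mapped the reads with HISAT2 2.0.5 to the mouse genome (Ensembl 94, GRCm38). Raw counts per gene and FPKM were deposited for every mouse. Neither the counting program nor its strand setting is given in the sources used here. From counts, lengths and FPKM, the number of fragments behind the FPKM was worked out. It was 0.854 to 1.00 times the mouse's own total in HSD17B1TG and 0.991 to 1.16 times in WT. The FPKM of most HSD17B1TG mice were thus higher, and those of most WT mice lower, than division by the total would give. A further 10 deposited columns of normalized values were not used, nor were the deposited fold changes and p-values of the authors' DESeq2 comparison, their list of called genes and the GO and KEGG tables.

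Mice were grouped by the genotype of the labels. The test was the quasi-likelihood test of edgeR 4.0.16 on counts (R 4.3.3, filterByExpr, TMM), and p-values were adjusted by Benjamini-Hochberg over 16993 genes. Thresholds followed the study (adjusted p-value 0.05, fold 2, FPKM 1). Where nothing says otherwise, adjusted p-values are of this fit. Alternatives were DESeq2 1.42.0, voom of limma 3.58.1, other normalizations and filters, and each mouse left out. Whether mice shared a litter is not given, so p-values measure the spread between these mice.

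The 7 members, the gene lists and the tests were chosen with earlier results of these data known. Named genes were the members, the listed WAP genes, and markers at or near 0. From the leucocyte protease list and the Kunitz and Kazal list, the called genes and the 3 with the smallest p were named. Also named were the 3 most alike genes of each member (genes tested with a mean FPKM over 1 in either genotype, log2 CPM with a prior count of 2). Not every called marker of the cell type lists was named. *Cd68*, *Csf1r*, *Mrc1*, *Epcam*, *Krt8*, *S100a9*, *Ly6g*, *Ctsg* and the squamous keratins were named after their values were seen. So were the other neutrophil, oviduct and squamous markers named here. No protein table was used here, so the cysteine codons of coding sequences stand in for the protein pattern that had been planned. Alignments were global (match 1, mismatch -1, gap -2).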

Additional observations from a re-analysis of the deposited data

Results flagged for a closer look

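In 2 of 14 groups of 5 mice, 1 mouse lay apart from the other 4 by Dixon's test (critical value 0.71). For normal values that limit sets about 1 group in 20 apart. Here it was used on FPKM that were not transformed, and the 14 groups share the same mice, so that rate need not hold. *Wfdc2* was at 203 FPKM in WT mouse 3, and at 322 to 362 FPKM in the other WT mice. *Wfdc3* was at 7.16 FPKM in the same WT mouse 3, and at 0.172 to 1.03 FPKM in the others. The summed epithelial markers of this mouse were 646 FPKM (531 to 1825 over the WT mice) and its oviduct markers 7.21 FPKM (2.04 to 7.21), and their part in both values was not tested.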

How the results depend on the processing

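DESeq2 called 925 genes higher and 658 lower, in place of 367 and 354. It called 2 members higher, 2 lower (*Slpi* and *Wfdc3* added), and 3 of the Kunitz and Kazal inhibitors in place of 1. Limma voom called 189 genes lower, and the adjusted p-value alone called 568 higher. Of all calls 50.9% were higher in edgeR with TMM, 36.7% with total counts, 67.4% in voom. With total counts the median of all genes was -0.17 on the log2 scale, and *Wfdc17* was at 0.03 and *Wfdc18* at 5.04. With 1 mouse left out in turn, 38 to 888 genes were called higher and 27 to 666 lower (38 higher without HSD17B1TG mouse 5 or WT mouse 2, 27 lower without HSD17B1TG mouse 5, the most of both without WT mouse 4), 1 to 2 members higher, 0 to 2 lower, and 0 to 3 Kunitz and Kazal inhibitors. The log2 fold change of *Wfdc17* ran from -0.13, a reversed sign, without HSD17B1TG mouse 1 to 0.33 without HSD17B1TG mouse 5. The causes were not tested. The counts of other WAP genes and of leucocyte proteases called were 0 in every fit. No paired analysis was possible because the labels give the mice no shared replicate numbers. The values of *Wfdc3* in most mice and of most other WAP genes rest on low counts, and the part of depth was not tested.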

Other observations

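WT mouse 3, which held most *Wfdc3*, *Eppin*, *Wfdc13* and *Wfdc10* counts of the WT mice, also had 248 counts of *Spink1*, a Kazal trypsin inhibitor, and 1108 of the gland chemokine *Cxcl15*. *Cxcl15* had 761 counts in WT mouse 2, 425 in WT mouse 5, 93 in WT mouse 1 and 7 in WT mouse 4. In WT mouse 5, *Spink1* had 127 counts and *Wfdc3* 16. *Spink1* had at most 1 count in any other mouse. *Cxcl15* had 0 counts in HSD17B1TG mice 1 to 4 and 35 in mouse 5. These genes were named after their values were seen.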
